A study of Mus musculus with 9 samples.

Results

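The epithelial enzymes that release reactive oxygen species and nitric oxide were followed in mouse colon as 7 genes, taken from the table by symbol: Nox1, Noxo1, Noxa1, Cyba, Duox2, Duoxa2 and Nos2. All 7 were found among the 46095 symbols of the deposited count table, and all 7 were among the 14593 genes with enough counts to be tested. To ask what loss of SETD2 adds to loss of SMAD4, RNA was sequenced from intestinal epithelial cells (IECs) of 4 Smad4 Vil-KO mice (Smad4 knockout) and of 5 mice with Setd2 Vil-KO as well (double knockout), 1 library each. Both groups carried floxed Smad4 alleles and Villin-Cre, which is active along the whole intestinal epithelium, and the second group also carried floxed Setd2, so that Smad4 was targeted by design in all 9 mice. Both groups received azoxymethane (AOM, 10 mg/kg) at 8 weeks of age and 2% dextran sodium sulphate (DSS) in drinking water, a carcinogen and an irritant that together injure the colon and give tumours, and IECs were taken on day 10. The IECs were released from colon pieces with EDTA, without a sort, so other cells of the mucosa can be among them. The labels give each mouse as a separate sample and do not give its sex.

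NADPH oxidases pass electrons from NADPH across a membrane to oxygen. NOX1, the form of colon epithelium, makes superoxide as a complex with p22phox (encoded by Cyba), the organizer NOXO1, the activator NOXA1 and the GTPase RAC1. DUOX2 makes hydrogen peroxide at the apical surface and needs its maturation factor DUOXA2 to leave the endoplasmic reticulum. NOS2, the inducible nitric oxide synthase, makes nitric oxide from arginine with tetrahydrobiopterin as a cofactor and is known for its induction by interferon and microbial products. In the gut these enzymes are known for defence against microbes and for redox signals during repair.

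The genes lie on several chromosomes of GRCm38.p6, the RefSeq assembly that mm10 represents. Nox1 spans chrX:134086421-134137711 on the minus strand, Noxa1 spans chr2:25085667-25095205 on the minus strand and Noxo1 spans chr17:24696234-24700530 on the plus strand. Cyba is at chr8:122424771-122432940 on the minus strand and Nos2 at chr11:78920787-78960226 on the plus strand. Duox2 (chr2:122279246-122298740, minus strand) and Duoxa2 (chr2:122298900-122302885, plus strand) stand head to head with 159 bases between their annotated starts. This gap is shown because its genes had similar patterns over the libraries, and the bases upstream of Noxa1 and Nox1 because Noxa1 was the member that passed the test and Nox1 is its catalytic partner. The sequences are from RefSeq and are intergenic or upstream of a transcript start, with no annotated exon base. The Nox1 window ends at a transcript start within the gene's annotated span. Capitals mark matches to the searched motifs on either strand: TATAAA, the GATA motif (TGATAA or AGATAA) and the GAS motif of interferon-responsive genes (TTCNNNGAA).

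Duox2-Duoxa2 gap, chr2:122298741-122298899, plus strand: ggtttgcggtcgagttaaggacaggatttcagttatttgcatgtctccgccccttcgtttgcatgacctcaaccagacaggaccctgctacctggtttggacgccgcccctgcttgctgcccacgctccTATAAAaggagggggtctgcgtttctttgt
Noxa1 upstream, chr2:25095206-25095455, minus strand: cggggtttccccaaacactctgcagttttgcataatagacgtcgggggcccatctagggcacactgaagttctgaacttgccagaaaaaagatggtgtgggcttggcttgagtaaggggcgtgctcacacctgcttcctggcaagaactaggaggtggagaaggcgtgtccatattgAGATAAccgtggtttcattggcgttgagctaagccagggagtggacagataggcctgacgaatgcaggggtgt
Nox1 upstream, chrX:134111855-134112104, minus strand: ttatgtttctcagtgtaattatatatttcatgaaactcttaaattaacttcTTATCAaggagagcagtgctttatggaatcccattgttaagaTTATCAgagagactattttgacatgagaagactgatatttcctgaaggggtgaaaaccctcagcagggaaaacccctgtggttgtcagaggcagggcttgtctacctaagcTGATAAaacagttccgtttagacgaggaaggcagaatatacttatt

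The gap held 1 TATAAA, 30 to 25 bases before the Duoxa2 start, and 7.95% of 32851 RefSeq promoter windows held that motif within 159 bases. The 250 bases before Nox1 held 3 GATA matches, found at that number or above in 0.371% of windows. The Noxa1 window held 1 GATA match, found in 16.6% of windows. No GAS match was found in these 3 sequences, and 7.02% of 250-base windows held one. A match in letters is a description of the window and not a site of binding.

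The libraries held 12487129 to 17120202 counts, and 1 count was worth 0.0594 to 0.0794 on the CPM scale, which gives the counts of a gene relative to the TMM-normalised total of its library. Of the 14593 genes tested, 1941 (13.3%) passed an adjusted p of 0.05 (edgeR, quasi-likelihood, Benjamini-Hochberg), of which 986 were higher and 955 lower in double knockout IECs. Setd2 fell by 0.77 on the log2 scale (SE 0.14, adjusted p = 0.00756), from 99.2 to 120.1 CPM in the Smad4 knockout libraries to 53.9 to 87.1 CPM in the others. Smad4, targeted in both groups, still gave 38.2 to 114 CPM, with 92.7 CPM in Smad4 knockout replicate 1 and 114 and 98.7 CPM in double knockout replicates 2 and 5, against 38.2 to 60.1 CPM in the other libraries. A count per gene does not separate the floxed exons from the rest of the transcript. Kdm5d, Uty, Ddx3y and Eif2s3y of the Y chromosome together gave 4907, 4745 and 3857 counts in double knockout replicates 1, 2 and 5, while the other 6 libraries had at most 28, so every Smad4 knockout library lay on the side without such counts. Double knockout replicates 1 and 2 also stood apart from replicates 3 to 5. Mitochondrial genes took 5.62% and 6.29% of their counts, against 9.15% to 10.3% in replicates 3 to 5 and 8.12% to 9.03% in Smad4 knockout. The chi-square per gene was 20.9 between replicates 1 and 2, 46.4 to 70.3 between either of them and replicates 3 to 5, and 9.96 to 28.9 among the latter. In Smad4 knockout it was 27.5 to 42.5 between replicate 1 and the others and 11.6 to 13.0 among these. Epithelial markers summed to 13176 to 15217 CPM in Smad4 knockout and to 12466 to 14890 CPM in double knockout libraries, and 0 of 9 passed the test. Small intestine enterocyte markers were higher for 10 of 11 genes (summed 226 to 289 against 504 to 1128 CPM), and distal gut Hox genes were lower for 3 of 6 (summed 240.2 to 363 against 137 to 249 CPM). Of the called enterocyte markers, Anpep, Apoa1, Fabp1 and Gata4 were not followed through the alternatives. Among the other calls, that of Rbp2 was lost in 4 of 20 alternatives. That of Hoxb13 was lost in 7 (adjusted p up to 0.0875) and that of Hoxd12 in 10 (adjusted p up to 0.137), while that of Hoxd13 was kept in all. Muc2, the mucin of goblet cells, was lower (log2 fold change -1.62, adjusted p = 0.000542 by edgeR), and the absorptive colonocyte genes Car1, Car4, Slc26a3, Aqp8 and Cyp2c55 did not pass (adjusted p 0.133 to 0.929 by edgeR). In bulk IECs, fewer cells of a type and less RNA per cell cannot be told apart, and the part of these shifts in the values of the oxidases was not tested.

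Of the 7 oxidase genes, Noxa1 was lower in double knockout IECs (0.739-fold) and no other gene passed the adjusted test. The 1 lower call among the 7 stands beside 6.54% lower calls among all genes, and the 0 higher calls beside 6.76%, or 13.3% in either direction, so the share is near the background. The median log2 fold change of the 7 was -0.26, beside -0.0006 for all genes tested. Noxo1 and Noxa1 had an unadjusted p under 0.05, which 15.3% of all genes had in the lower direction and 30.6% in either. None of the 7 had groups that did not overlap, whereas 8.87% of all genes lay wholly lower and 8.34% wholly higher in the double knockout libraries. None passed a fold change of 1.5 with an unadjusted p under 0.05, which 13.8% of all genes did.

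**Figure D1:**
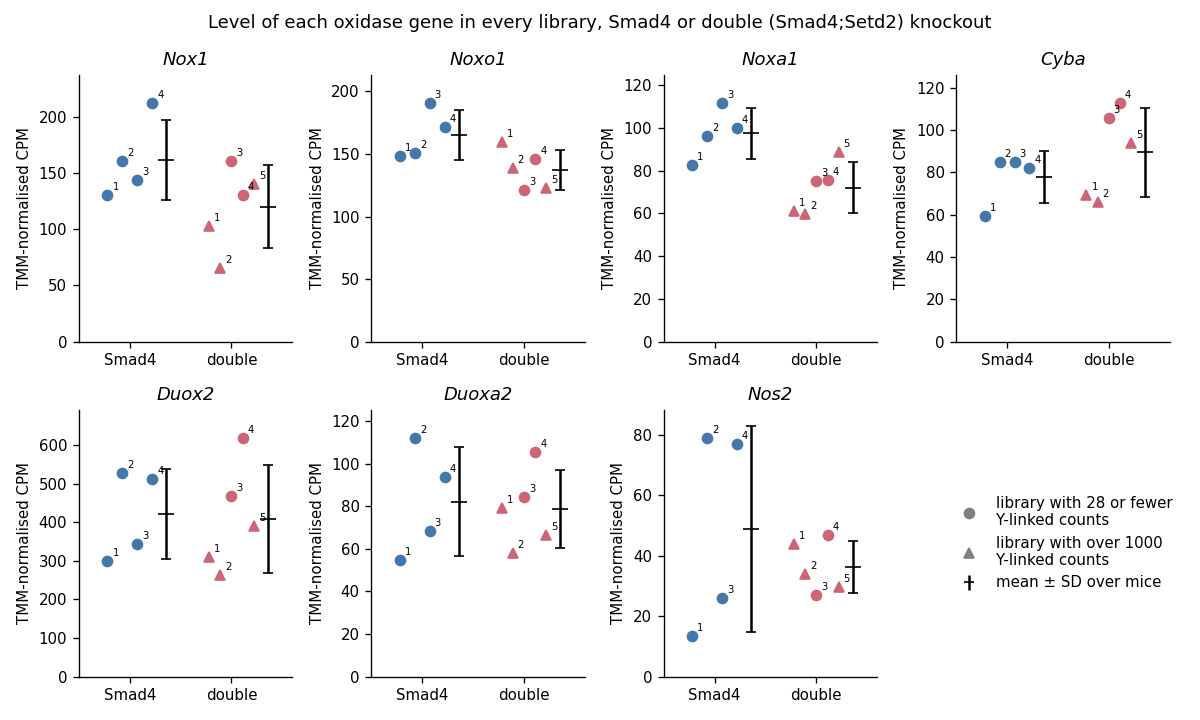
TMM-normalised CPM (linear axis from 0) of the 7 oxidase genes in every library, with Smad4 knockout in blue and double knockout in red, digits giving the replicate, triangles marking libraries with over 1000 Y-linked counts and black bars the mean ± SD over 4 or 5 mice. The groups overlap for every gene, and Nos2 runs from 13.5 to 78.9 CPM in Smad4 knockout but from 27.1 to 46.9 CPM in double knockout.

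Nox1, the catalytic subunit of the superoxide-making complex, was at 130.0, 161, 143 and 212 CPM in Smad4 knockout replicates 1 to 4. It was at 103, 65.8, 160.2, 130.4 and 140.4 CPM in double knockout replicates 1 to 5. The groups overlapped, with replicate 4 of Smad4 knockout highest and replicate 2 of double knockout lowest. The means were 161 ± 35.8 (SD, n = 4) and 120 ± 36.7 CPM (SD, n = 5), or -0.43 as log2 fold change (SE 0.23, 95% interval -0.93 to 0.08, adjusted p = 0.230 by edgeR), so the data allow any value from 0.524-fold to 1.05-fold. Nox1 is X-linked, and with the 6 libraries of at most 28 Y-linked counts its log2 fold change was -0.14 (adjusted p = 0.594). With 1 library left out it was -0.55 to -0.27, nearest to 0 without Smad4 knockout replicate 4 or double knockout replicate 2. Exons of Nox1 overlap those of Cstf2, a gene of RNA 3' end processing on the opposite strand, by 399 bases. Cstf2 rose without overlap between groups, from 64.4 ± 1.90 (SD, n = 4) to 99.9 ± 7.84 CPM (SD, n = 5), or 0.63 as log2 fold change (SE 0.08, adjusted p = 0.000985), and whether reads of the shared bases were assigned by strand is not given in the sources used here.

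Noxo1, the organizer that holds the complex at the membrane, was at 148, 151, 190.3 and 171 CPM in Smad4 knockout and at 159, 139, 121, 146 and 123 CPM in double knockout. Of the second group only replicate 1 lay above the lowest library of the first. The means were 165 ± 19.8 (SD, n = 4) and 137 ± 16.1 CPM (SD, n = 5), with a log2 fold change of -0.26 (SE 0.11, 95% interval -0.50 to -0.03, adjusted p = 0.123 by edgeR), which missed the threshold. Of the 2238 exonic bases of Noxo1, 1347 overlap Tbl3 on the opposite strand, so reads of the shared bases cannot be told apart if strand was not used. Tbl3 was at 27.7 against 24.1 CPM in mean (log2 fold change -0.20, SE 0.13, adjusted p = 0.320).

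Noxa1, the activator that joins NOX1 to RAC1, was at 82.7, 96.0, 111 and 99.9 CPM in Smad4 knockout replicates 1 to 4. It was at 60.9, 59.9, 75.0, 75.8 and 88.6 CPM in double knockout replicates 1 to 5, so that 4 of these 5 libraries lay below all of the other group and replicate 5 lay above 1. The mean fell from 97.5 ± 11.8 (SD, n = 4) to 72.0 ± 11.9 CPM (SD, n = 5), or -0.44 as log2 fold change (SE 0.13, 95% interval -0.72 to -0.16, adjusted p = 0.0461 by edgeR). The call lay close to the threshold. It was lost on leaving out any 1 of Smad4 knockout replicates 2, 3 and 4 or of double knockout replicates 1, 2, 3 and 4 (adjusted p up to 0.144, log2 fold change -0.51 to -0.36 over all 9 such fits), and within the libraries of at most 28 Y-linked counts (-0.37, adjusted p = 0.0501). Its unadjusted p with 1 library left out was at most 0.0242. The exons of Noxa1 overlap those of Entpd8, an ectonucleotidase gene of the opposite strand, by 50 bases, and Entpd8 fell without overlap from 222 ± 20.8 (SD, n = 4) to 177 ± 13.3 CPM (SD, n = 5) with an adjusted p of 0.0310 by edgeR.

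Cyba, which encodes the p22phox subunit that stabilises NOX1 and also the phagocyte oxidase, was at 59.3, 85.1, 84.9 and 82.2 CPM in Smad4 knockout. It was at 69.2, 66.0, 106, 113 and 93.8 CPM in double knockout. Replicate 1 stood below the rest of the Smad4 knockout group, and replicates 3, 4 and 5 of the other group were above all 4. Means were 77.9 ± 12.5 (SD, n = 4) and 89.5 ± 21.1 CPM (SD, n = 5), or 0.20 as log2 fold change (SE 0.18, 95% interval -0.19 to 0.59, adjusted p = 0.467 by edgeR). Cyba was thus the 1 member with a positive estimate over the 9 libraries. Within the 6 libraries of at most 28 Y-linked counts it passed the test as higher (0.49, adjusted p = 0.0322), while a fit of all 9 with a term for these counts gave 0.49 with an adjusted p of 0.104.

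**Figure D2:**
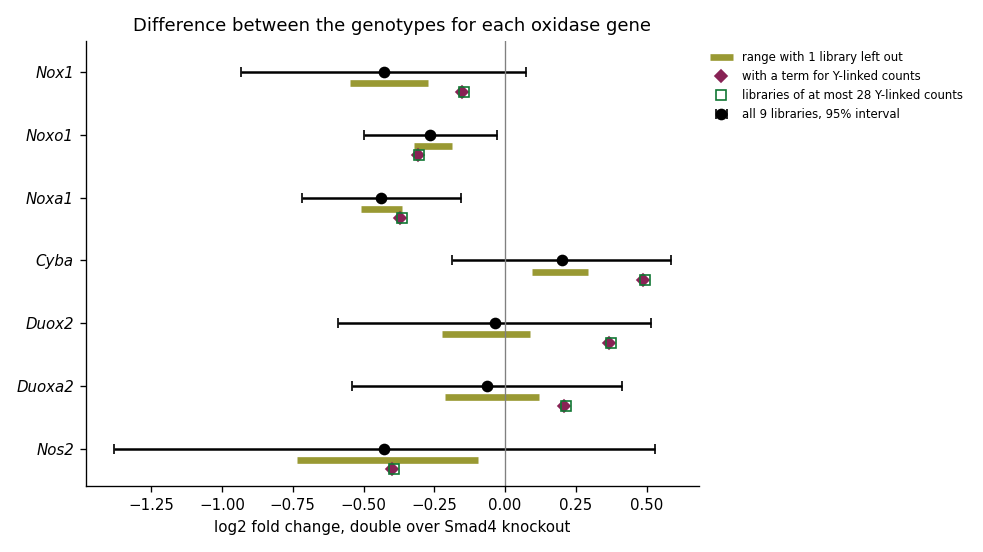
Log2 fold change (double knockout over Smad4 knockout) of each oxidase gene, with black points and bars for edgeR on all 9 libraries and the 95% interval, olive bars for the range with 1 library left out, diamonds for a fit with a term for Y-linked counts and open squares for the 6 libraries of at most 28 such counts. Noxa1 and Noxo1 have intervals below 0, and Duox2 moves from -0.04 to 0.37 when the Y-linked term is added.

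Duox2, the oxidase that makes hydrogen peroxide at the apical membrane, was at 298, 528, 343 and 512 CPM in Smad4 knockout and at 309, 264, 467, 618 and 390.4 CPM in double knockout. The groups overlapped, the second reaching both lower and higher than the first, with replicates 2 and 4 high in the first and replicates 3 and 4 high in the second. The means were 420.3 ± 117 (SD, n = 4) and 409.6 ± 140.0 CPM (SD, n = 5), and the log2 fold change was -0.04 (SE 0.25, 95% interval -0.59 to 0.52, adjusted p = 0.937 by edgeR). The data therefore allow any value from 0.664-fold to 1.43-fold. The sign turned positive on leaving out Smad4 knockout replicate 2 or 4 or double knockout replicate 1 or 2 (up to 0.09).

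Duoxa2, whose product carries DUOX2 out of the endoplasmic reticulum, was at 54.7, 112, 68.5 and 93.6 CPM in Smad4 knockout and at 79.1, 57.8, 84.4, 106 and 66.3 CPM in double knockout. The same replicates 2 and 4, and 3 and 4, were again the high ones. Means were 82.2 ± 25.6 (SD, n = 4) and 78.7 ± 18.3 CPM (SD, n = 5), or -0.06 as log2 fold change (SE 0.22, 95% interval -0.54 to 0.41, adjusted p = 0.870 by edgeR), and the sign turned on leaving out Smad4 knockout replicate 2 or 4 or double knockout replicate 2 or 5 (up to 0.12). Exons of Duoxa2 overlap 682 bases of Duoxa1 on the opposite strand, but Duoxa1 was at 0.214 and 0.301 CPM in the group means.

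Within double knockout, the libraries with many Y-linked counts were the lower ones for the DUOX2 pair and for Cyba. Duox2 was at 264 to 390.4 CPM in the 3 with such counts and at 467 and 618 CPM in the 2 without. Duoxa2 was at 57.8 to 79.1 against 84.4 and 106 CPM, and Cyba at 66.0 to 93.8 against 106 and 113 CPM. The other 4 genes overlapped between the same libraries. Nox1 was at 65.8 to 140.4 against 130.4 and 160.2 CPM, Noxa1 at 59.9 to 88.6 against 75.0 and 75.8 CPM, Noxo1 at 123 to 159 against 121 and 146 CPM and Nos2 at 29.5 to 43.8 against 27.1 and 46.9 CPM. No Smad4 knockout library held such counts, so the same split could not be made there. Of the 3 libraries with such counts, replicates 1 and 2 were also those with the low mitochondrial share, and they were the lowest of double knockout for Nox1, Noxa1, Cyba and Duox2. Without both, an alternative added after the values were seen, none of the 7 genes passed the test. Noxa1 was then at -0.28 as log2 fold change (adjusted p = 0.103 by edgeR), Noxo1 at -0.34 (adjusted p = 0.0613), Nox1 at -0.16 (adjusted p = 0.512) and Cyba at 0.43 (adjusted p = 0.0511). Duox2 was at 0.23 (adjusted p = 0.499), Duoxa2 at 0.063 (adjusted p = 0.879) and Nos2 at -0.49 (adjusted p = 0.560). The part of the Y-linked counts and of the mitochondrial share in these values was not tested.

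Nos2, the inducible source of nitric oxide, was at 13.5, 78.9, 25.9 and 77.1 CPM in Smad4 knockout replicates 1 to 4. It was at 43.8, 34.1, 27.1, 46.9 and 29.5 CPM in double knockout replicates 1 to 5. The Smad4 knockout libraries thus split into replicates 2 and 4 above, and replicates 1 and 3 below, every library of the other group. Means were 48.8 ± 34.0 (SD, n = 4) and 36.3 ± 8.72 CPM (SD, n = 5), or -0.43 as log2 fold change (SE 0.43, 95% interval -1.38 to 0.53, adjusted p = 0.534 by edgeR), so a change from 0.383-fold to 1.44-fold could not be told from none. The range was 5.85-fold within Smad4 knockout and 1.73-fold within double knockout. The SD of log2 CPM in Smad4 knockout was at the 99.2 percentile of all tested genes, and that in double knockout at the 64.9 percentile. A difference in spread was not tested.

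Macrophages and neutrophils can also make Nos2, and their markers were read in the same libraries. Macrophage and monocyte markers summed to 78.7, 127, 95.5 and 189 CPM in Smad4 knockout replicates 1 to 4 and to 96.7, 88.6, 74.9, 91.4 and 82.5 CPM in double knockout replicates 1 to 5. Smad4 knockout replicates 2 and 4, the libraries with high Nos2, thus had the highest sums of all 9. The gene with the highest level among them was Cd14, the co-receptor for lipopolysaccharide, at 59.7, 93.1, 66.6 and 88.3 CPM in Smad4 knockout. Cd14 was also the 1 called gene of the 11 tested, and fell from 76.9 ± 16.3 (SD, n = 4) to 49.9 ± 4.90 CPM (SD, n = 5), or -0.62 as log2 fold change (adjusted p = 0.0152 by edgeR). Its call was lost with the Y-linked term (-0.53, adjusted p = 0.0944) and within the libraries of at most 28 Y-linked counts (-0.52, adjusted p = 0.0591). Lyz2, lysozyme of myeloid cells, was at 4.56 to 9.39 CPM in Smad4 knockout replicates 1 to 3, at 63.8 CPM in replicate 4 and at 7.20 to 15.3 CPM in double knockout. Cd14 and Lyz2 thus held most of the macrophage and monocyte sum. The other tested markers of this list had group means of 0.472 to 7.99 CPM and did not pass (adjusted p 0.181 to 0.981 by edgeR). Of the 11 tested, 3 had a positive log2 fold change, among them Itgam at 5.22 against 7.99 CPM. Cd163, a macrophage receptor, had 0 counts in each Smad4 knockout library and 1 to 14 in the double knockout libraries. Neutrophil markers summed to 112, 187, 120.5 and 141 CPM in Smad4 knockout and to 147, 154, 83.1, 94.5 and 59.0 CPM in double knockout with 0 of 5 called, most of it Ly6g at 57.1 to 172 CPM. Of the others, Csf3r, the receptor for granulocyte colony-stimulating factor, was at 0.513, 4.75, 1.47 and 3.49 CPM in Smad4 knockout and at 3.53, 4.34, 1.26, 3.38 and 0.775 CPM in double knockout. S100a8 was at 0.192, 3.45, 0.798 and 1.43 CPM in Smad4 knockout and at 0.155 to 8.89 CPM in double knockout. Both were thus higher in the Smad4 knockout replicates 2 and 4, where Nos2 was high, than in replicates 1 and 3, and double knockout replicate 2, which had the most S100a8, had 34.1 CPM of Nos2. Pan-leukocyte markers summed to 54.7 to 103 against 35.4 to 112 CPM (0 of 8 called) and stromal markers to 18.8 to 29.4 against 22.4 to 48.7 CPM (0 of 5 called). Their part in the Nos2 values was not tested.

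Per kilobase of annotated exon, a scale on which genes can be compared, the mean level in Smad4 knockout was 105 CPM per kb for Cyba, 73.8 for Noxo1, 68.8 for Duox2, 63.0 for Nox1, 60.3 for Noxa1, 51.6 for Duoxa2 and 11.4 for Nos2. From Noxo1 to Duoxa2 neighbours in this order differed by less than the larger of their SDs over mice (14.0 to 19.1 CPM per kb). In double knockout the means were 120.3, 61.4, 67.0, 46.8, 44.6, 49.4 and 8.44 CPM per kb for the same genes. Nos2 stood below the other members in every library, with at most 18.4 CPM per kb against at least 25.7 CPM per kb for these.

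The pattern over the 9 libraries was compared by the root mean square difference between genes of log2 CPM after each gene's own mean was taken away, as a description without a test, since all points share libraries and their depth. For Duox2 the difference to Duoxa2 was 0.183, the 6th smallest of 14592 genes, and to Cyba 0.240, the 32nd smallest. The median gene differed from Duox2 by 0.481. Counts of Duox2 over those of Duoxa2 were 5.16 ± 0.367 (SD, n = 4) in Smad4 knockout and 5.15 ± 0.875 (SD, n = 5) in double knockout, with 3.91 in replicate 1 as the lowest library. For Nox1 the nearest member was Noxa1 (0.288, rank 303), ahead of Duox2 (0.332, rank 831), while Noxo1 was at rank 4820. Counts of Noxa1 over Nox1 were 0.621 ± 0.125 (SD, n = 4) and 0.637 ± 0.165 (SD, n = 5), and those of Noxo1 over Nox1 were 1.05 ± 0.227 and 1.28 ± 0.553 for the same mice. Nos2 was at 0.760 from Nox1 (rank 12251), at 0.608 from Duox2 (rank 10945) and at 0.518 from Duoxa2 (rank 10056). The median gene was at 0.803 from Nos2, farther than each of these.

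**Figure D3:**
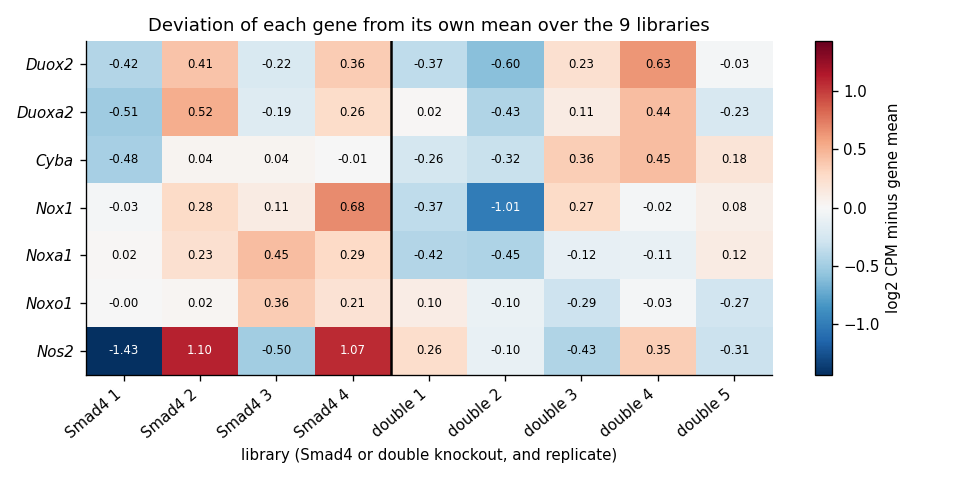
Deviation of log2 CPM from the gene's own mean over the 9 libraries, in log2 units (red above, blue below), with a row for each oxidase gene, a column for each library and a black line between Smad4 knockout and double knockout. Duox2 and Duoxa2 share high values in Smad4 knockout replicates 2 and 4 and double knockout replicate 4, and Nos2 spans -1.43 to 1.10.

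Among all other tested genes, those nearest in pattern to Nox1 were Zfp940 (difference 0.152), Bicd2 (0.158) and Mmgt2 (0.161). Nearest to Duox2 were Arid3a (0.119), Pex10 (0.161) and LOC105246114 (0.163). The nearest to Nos2, namely Csf2rb (0.296), Camk2b (0.356) and Gm2296 (0.381), had larger differences, but so did the median gene, at 0.803 from Nos2 against 0.509 from Nox1 and 0.481 from Duox2.

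The rest of the NADPH oxidase family was low or did not pass the test, with the exception of Duox1. Of 8 tested genes 1 was higher and 0 lower, beside 6.76% and 6.54% of all genes, with a median log2 fold change of 0.30. Duox1, the second dual oxidase, 14269 bases from Duox2 on the opposite strand, was at 1.09, 1.01, 0.983 and 0.318 CPM in Smad4 knockout. It was at 3.65, 1.92, 6.15, 11.7 and 3.95 CPM in double knockout, and every one of these libraries lay above the other group. Duox1 rose from 0.850 ± 0.358 (SD, n = 4) to 5.48 ± 3.80 CPM (SD, n = 5), or 2.65 as log2 fold change (SE 0.54, adjusted p = 0.0108 by edgeR), and its adjusted p stayed at or below 0.0403 in the 19 alternatives that tested it, in which its log2 fold change was 2.18 to 3.35. Its level stayed far below that of Duox2, at 1.04 against 67.0 CPM per kb in double knockout. Of the 50-base stretches of the Duox1 transcript 7.95% also occur in Duox2, so some reads of these genes may have been split between them. Rac1, the GTPase of the NOX1 complex, was at 394 against 452 CPM (log2 fold change 0.20, SE 0.07, adjusted p = 0.0927). Cybb, the catalytic subunit of phagocytes, was at 2.46 against 4.54 CPM (adjusted p = 0.216), and Nox3 had no counts. The other nitric oxide synthases, Nos1 and Nos3, summed to at most 0.246 CPM and were not tested.

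Genes that make, carry, use or regulate the substrate and cofactor of NOS2 changed in both directions. Of 15 tested, 2 were higher and 2 lower, beside 6.76% and 6.54% of all genes, with a median log2 fold change of 0.25. Gch1, the first and rate-limiting enzyme of tetrahydrobiopterin synthesis, was at 20.9 to 28.7 CPM in Smad4 knockout and at 35.8 to 43.3 CPM in double knockout. It rose by 0.77 on the log2 scale (SE 0.11, adjusted p = 0.00217 by edgeR). Gchfr, which encodes the feedback inhibitor of that enzyme, went the other way, from 5.39 to 7.61 CPM down to 2.04 to 3.59 CPM (log2 fold change -1.19, SE 0.21, adjusted p = 0.00562). Slc7a7, a carrier subunit for arginine and other cationic amino acids, rose from 36.5 ± 7.63 (SD, n = 4) to 61.0 ± 9.45 CPM (SD, n = 5; adjusted p = 0.0117 by edgeR). Counts do not show whether its product carries arginine into or out of these cells. Gch1, Gchfr and Slc7a7 passed the test in all 20 alternatives. The other listed carriers, Slc7a1 and Slc7a2, did not pass. Slc7a1 was at 64.4 against 80.7 CPM (adjusted p = 0.138 by edgeR) and Slc7a2 at 0.772 against 1.18 CPM (adjusted p = 0.304). Ass1, which helps to regenerate arginine from citrulline, fell from 13.6 ± 0.713 (SD, n = 4) to 8.37 ± 1.96 CPM (SD, n = 5; log2 fold change -0.70, adjusted p = 0.0268 by edgeR) and was lost in 6 of 20 alternatives (without any 1 Smad4 knockout library, without double knockout replicate 3 and with the replicate block, adjusted p up to 0.0773). The downstream tetrahydrobiopterin enzymes Pts and Spr were at 44.1 against 42.5 CPM (adjusted p = 0.795) and at 49.3 against 47.1 CPM (adjusted p = 0.659).

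Of 20 tested genes that remove superoxide and peroxide, 2 were higher and 1 lower, with a median log2 fold change of -0.03. Over all tested genes 6.76% were higher and 6.54% lower. Prdx6, a peroxidase that also reduces phospholipid peroxides, was at 2073 to 2337 CPM in Smad4 knockout and at 818 to 1588 CPM in double knockout (log2 fold change -0.78, SE 0.17, adjusted p = 0.0152 by edgeR), and was lost with the term for Y-linked counts (-0.65, adjusted p = 0.0984). Gsr, glutathione reductase, rose from 150.0 ± 12.4 (SD, n = 4) to 224 ± 40.6 CPM (SD, n = 5; log2 fold change 0.58, adjusted p = 0.0145 by edgeR), and was lost with the same term (0.52, adjusted p = 0.0712). Prdx4, the peroxiredoxin of the endoplasmic reticulum, rose from 33.5 to 46.9 CPM (0.49, adjusted p = 0.0445) and was lost in 12 of 20 alternatives, among them leaving out any 1 Smad4 knockout library or double knockout replicate 1 or 2 (adjusted p up to 0.121), leaving out both of these replicates (0.30, adjusted p = 0.0775) and the term for Y-linked counts (0.22, adjusted p = 0.349). Sod1, the cytosolic superoxide dismutase, was at 206 against 205 CPM (adjusted p = 0.979).

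Lpo, lactoperoxidase, which uses hydrogen peroxide to make antimicrobial hypothiocyanite, was 1 of 2 tested peroxidase genes. It was at 36.1, 30.1, 24.5 and 26.0 CPM in Smad4 knockout and at 9.81, 21.3, 4.61, 2.28 and 11.5 CPM in double knockout, without overlap. It fell from 29.2 ± 5.19 (SD, n = 4) to 9.90 ± 7.41 CPM (SD, n = 5), or -1.56 as log2 fold change (SE 0.46, adjusted p = 0.0487 by edgeR), and was lost in 9 of 20 alternatives, those with 1 library left out other than double knockout replicate 2 (adjusted p up to 0.120) and library size as the only scaling. With 1 library left out its log2 fold change ran from -2.04 to -1.30. Without double knockout replicate 2, the highest of its group, Lpo was at -2.04 (adjusted p = 0.0114), without both replicates 1 and 2 at -2.25 (adjusted p = 0.00714), with limma-voom at -2.42 (adjusted p = 0.00252) and with the Y-linked term at -3.07 (adjusted p = 0.00166). Pxdn, peroxidasin of the basement membrane, was at 6.33 against 8.61 CPM (adjusted p = 0.135), and Mpo of neutrophils had no counts.

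**Figure D4:**
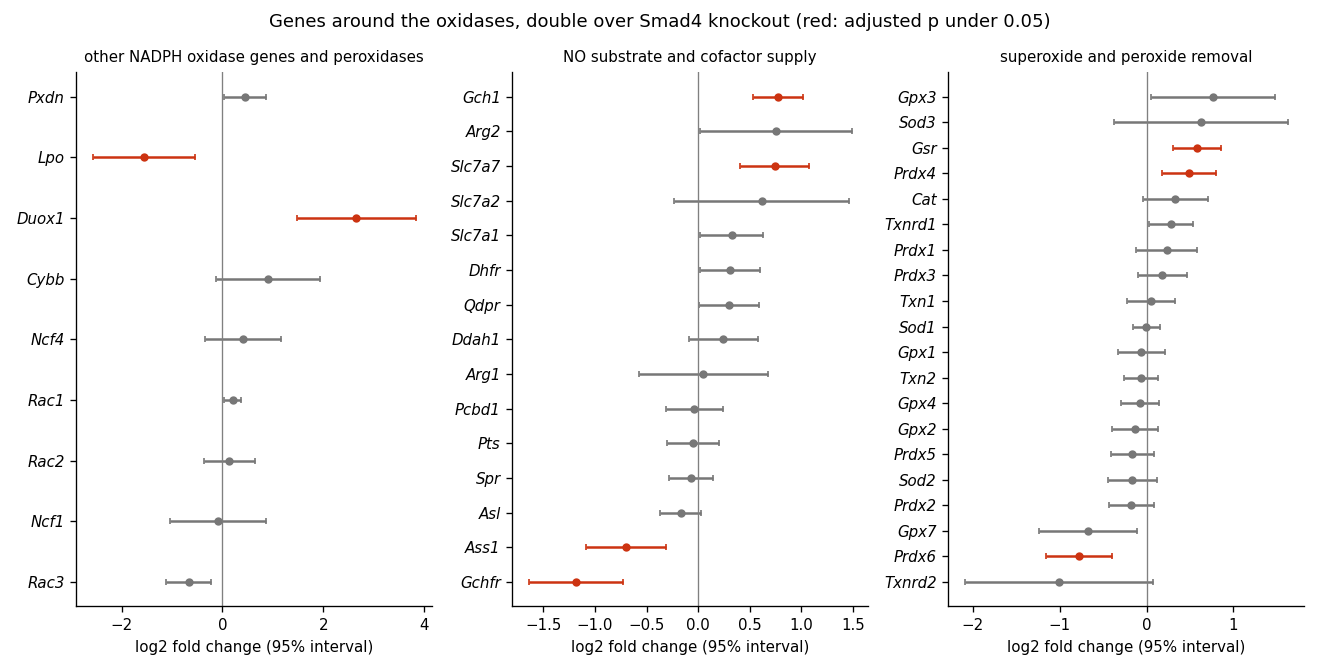
Log2 fold change (double knockout over Smad4 knockout) with 95% interval for the tested genes of 4 lists around the oxidases, 1 of them left out, with red for an adjusted p under 0.05. Duox1 and Gch1 are higher, while Gchfr, Lpo, Ass1 and Prdx6 are lower.

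Among 26 tested genes of cytokine and microbial signalling that are known to act upstream of Nos2 or Duox2, 2 were higher and 1 lower, with a median log2 fold change of 0.00. For this list and the defence genes below, the shares over all tested genes were 6.76% higher and 6.54% lower. Nfkbia, the inhibitor of NF-kB, rose from 42.0 to 64.7 CPM (0.62, adjusted p = 0.0480 by edgeR; lost in 10 of 20 alternatives), and Tlr5, the flagellin receptor, rose from 3.79 to 7.06 CPM (0.90, adjusted p = 0.0330; lost in 5). Nfkbiz, a nuclear partner of NF-kB, fell from 95.6 to 70.4 CPM (log2 fold change -0.44, adjusted p = 0.0212; lost in 4). Nfkbia lost its call without any 1 Smad4 knockout library or double knockout replicate 1, 2 or 4 (adjusted p up to 0.136), Tlr5 without Smad4 knockout replicate 1, 2 or 3 or double knockout replicate 3 or 4 (up to 0.103) and Nfkbiz without Smad4 knockout replicate 2, 3 or 4 (up to 0.0632). With the term for Y-linked counts Nfkbia was at 0.42 (adjusted p = 0.258) and Nfkbiz at -0.39 (adjusted p = 0.108), and without double knockout replicates 1 and 2 Nfkbia was at 0.33 (adjusted p = 0.0815). Nfkbia was also lost with library size as the only scaling (adjusted p = 0.0559). Of 15 tested epithelial defence genes that are often induced together with Duox2, 3 were higher and 0 lower, with a median of 0.20. A positive log2 fold change was found for 8 of the 15, and the summed CPM overlapped (16039 to 23369 against 13868 to 24550). Dmbt1, Pigr and Saa1 had negative estimates without a call. Dmbt1 went from 10498 to 8138 CPM (adjusted p = 0.230 by edgeR), Pigr from 6544 to 4355 CPM (adjusted p = 0.116) and Saa1 from 526 to 264 CPM (adjusted p = 0.0768). The antimicrobial lectins Reg3b and Reg3g rose by 3.51 (SE 0.76, adjusted p = 0.0149) and 2.80 (SE 0.72, adjusted p = 0.0278) on the log2 scale. Without Smad4 knockout replicate 2, which had the most of both in its group (993 CPM of Reg3b and 419 CPM of Reg3g), these values were 4.97 and 3.95, and over all 9 fits with 1 library left out they ran from 3.17 to 4.97 and from 2.47 to 3.95. Reg3b was lost without Smad4 knockout replicate 3 (adjusted p = 0.0558) and Reg3g without Smad4 knockout replicate 1, 3 or 4 or double knockout replicate 4 (adjusted p up to 0.0921). Ido1, the tryptophan-degrading enzyme, rose from 14.2 ± 4.61 (SD, n = 4) to 64.9 ± 60.2 CPM (SD, n = 5; adjusted p = 0.0357 by edgeR) with 82.6 and 163 CPM in replicates 1 and 2. It was lost in 7 of 20 alternatives, namely without any 1 Smad4 knockout library or double knockout replicate 1 (adjusted p up to 0.0984), with the Y-linked term (0.95, adjusted p = 0.326) and with limma-voom (1.36, adjusted p = 0.0501), beside a log2 fold change of 2.19 over the 9 libraries and of 1.51 (adjusted p = 0.0475) without double knockout replicate 2. Without double knockout replicates 1 and 2 it was at 0.89 (adjusted p = 0.0391). Replicates 1 and 2 were the lowest of double knockout for Duox2, at 309 and 264 CPM.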

How the data were processed

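The deposited table holds whole-number counts per gene symbol, which the authors made from RNA-seq of IECs of 9 mice without normalization or pooling. The submitters' processing notes name HISAT2 2.0 and mm10. The counting program, annotation and use of strand are not given in the sources used here. Each column was matched to its genotype and replicate by sample title. In the table, 27 symbols had been turned into dates, at most 0.137% of a library's counts, and stayed in the totals without a name.

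Genes were kept with filterByExpr by genotype, normalised with TMM and tested with edgeR 4.0.16 (R 4.3.3) by the quasi-likelihood test, without covariates, with Benjamini-Hochberg adjustment over 14593 genes. CPM are on TMM-scaled totals, and log2 CPM used a prior count of 2. Standard errors are the log2 fold change over the root of F. The method was tested on simulated counts. The p-values set the difference between genotypes against the spread between mice, and each member gene had at least 210 counts in every library.

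Alternatives used DESeq2 1.42.0, limma-voom (limma 3.58.1), other scaling and filters, a replicate block, each library left out, and the libraries of at most 28 Y-linked counts. The fits without double knockout replicates 2 and 5, in which Smad4 was high, and without replicates 1 and 2, which stood apart, were chosen after seeing the data. The members and lists were chosen with earlier results of these data known. All members were named, as were Setd2, Smad4, Y-linked genes, the called genes of each pathway list (up to the 6 highest in CPM), with its 2 highest where fewer than 2 were called, and the 3 genes nearest in pattern to Nox1, Duox2 and Nos2. Cstf2, Tbl3, Entpd8, Cybb, Nox3, Pts, Spr, Sod1, Mpo, Duoxa1, Cd14, Lyz2, Cd163, Ly6g, Csf3r and S100a8 were named beside them after their values were seen, as were Muc2, the absorptive colonocyte genes, Rbp2 and the called Hox genes. Dmbt1, Pigr, Saa1, Slc7a1, Slc7a2, Itgam, Anpep, Apoa1, Fabp1 and Gata4 were also named after their values were seen. The other called genes of the cell type marker lists are given as counts. Some genes that the rule covers are not reported here. Exon lengths and overlaps are from GENCODE M21, and gene positions and promoter windows from RefSeq (GRCm38.p6), in which 6 of 7 members had a window. The windows of Duox2 and Noxo1 held annotated exon bases and were not used. The promoter of Nos2 and protein sequences were not analysed here.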

Additional observations from a re-analysis of the deposited data

Results flagged for a closer look

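In 48 groups of values, 4 had 1 library far from the rest by Dixon's criterion, and chance marks about 1 in 20 groups. Smad4 knockout replicate 1 had 59.3 CPM of Cyba, where the other 3 libraries had 82.2 to 85.1 CPM. The same library had 92.7 CPM of Smad4 against 54.3 to 55.4 CPM in the others. Double knockout replicate 5 had a sum of 249 CPM of distal gut Hox genes, above 137 to 163 CPM in the rest of its group. This library also had a sum of 35.4 CPM of pan-leukocyte and lymphocyte markers, below 90.0 to 112 CPM in the others.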

How the results depend on the processing

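The direction of Nox1, Noxo1, Noxa1, Cyba and Nos2 was the same in all 20 alternatives. Noxa1 kept its call in 10 of 20, with an adjusted p of 0.0171 to 0.198 over them all. With a term for Y-linked counts Noxa1 was at -0.37, and with the libraries of at most 28 such counts also at -0.37, both without the call, and without double knockout replicates 1 and 2 at -0.28, also without it. With 1 library left out Nox1 was at -0.55 to -0.27, Noxo1 at -0.32 to -0.19, Noxa1 at -0.51 to -0.36, Cyba at 0.09 to 0.29, Duox2 at -0.22 to 0.089, Duoxa2 at -0.21 to 0.12 and Nos2 at -0.73 to -0.10. Duox2 turned positive with limma-voom (0.15), with the Y-linked term (0.37), with the libraries of few Y-linked counts (0.37) and without double knockout replicates 2 and 5 (0.14) or 1 and 2 (0.23). Duoxa2 did so with limma-voom (0.065), the replicate block (0.020), the Y-linked term (0.21), the libraries of few Y-linked counts (0.21) and without replicates 2 and 5 (0.13) or 1 and 2 (0.063). The cause was not tested. Cyba reached 0.49 and was called with the libraries of few Y-linked counts. Smad4 turned negative with limma-voom (-0.18), the replicate block (-0.14), the Y-linked term (-0.71), the libraries of few Y-linked counts (-0.70) and without replicates 2 and 5 (-0.47) or 1 and 2 (-0.12), and ranged from -0.11 to 0.37 with 1 library left out.

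Called genes numbered 1941, and 2887 with DESeq2, which gave 7842 genes no adjusted p, 2927 with limma-voom, 1285 with the Y-linked term, 2930 with the libraries of few Y-linked counts and 847 to 2696 with 1 library left out (fewest without Smad4 knockout replicate 3). Called members numbered 0 with the Y-linked term, without double knockout replicates 1 and 2 and by a 1.5-fold rule with an unadjusted p of 0.05, and 0 to 1 with 1 library left out. With the libraries of few Y-linked counts the 1 called member was Cyba. Of the list genes around the oxidases 15 were called, 27 with the libraries of few Y-linked counts and 6 to 18 with 1 library left out. Replicate numbers did not pair the mice (correlations of deviations -0.10, -0.10, 0.02 and 0.09). The replicate block gave 1618 genes, 1 member and 18 list genes. The 95% interval of Duox2 ran from 0.664-fold to 1.43-fold and that of Nos2 from 0.383-fold to 1.44-fold. Each member had at least 210 counts in every library, and the part of depth in these intervals was not tested.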
